A study of Homo sapiens with 6 samples.

Results

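The genes described are the 10 members of the NRF2 system chosen by symbol from the deposited table: the transcription factor NRF2 (NFE2L2), its inhibitor KEAP1, the competing repressor BACH1, the small MAF partners MAFF, MAFG and MAFK, and the outputs HMOX1, NQO1, SQSTM1 and SRXN1. All 10 were found among the 17297 gene symbols of the table. The rule itself uses no measured value. Their mRNA was measured by RNA-seq in LNCaP, a human prostate cancer cell line of luminal, androgen-responsive character. One line was transduced with the retroviral pBabe vector carrying wild-type GNA13, the gene for the G protein subunit Gα13 (pBabe-Gα13), and the other with the empty vector (pBabe-vector). Each was sequenced as 3 libraries from cultures grown for 48 h. Both lines carry the puromycin-selectable pBabe backbone, and 1 stable line stands for each condition, so p-values measure the spread between cultures of the same lines. Whether a line is a single clone is not given in the sources used here.

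NRF2 is held at low levels by KEAP1, an adaptor that presents it to a CUL3 ubiquitin ligase, and oxidants or electrophiles that modify KEAP1 let NRF2 accumulate. NRF2 then pairs with a small MAF protein at antioxidant response elements and drives genes for quinone reduction, heme breakdown, thiol repair and NADPH supply, while BACH1 pairs with the same small MAFs to repress some of these genes, HMOX1 above all. Because the main control acts on protein stability, the mRNA of NFE2L2 and KEAP1 does not report NRF2 activity by itself, and target mRNAs are the usual readout. Signalling through Gα13 to NRF2 in other cells is part of the background that the study gives.

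Library totals ran from 33002160 to 40628970 counts. By these totals alone 1 read was worth 0.0246 to 0.0303 CPM (counts scaled to a common library size) and a floor of 3 counts 0.0738 to 0.0909 CPM. The CPM values below also carry the TMM normalization factors, which shift these floors slightly. The targeted gene, GNA13, was at 818 ± 69.6 CPM in pBabe-Gα13 and 70.5 ± 5.72 CPM in pBabe-vector (SD, n = 3), in accord with the labels (edgeR quasi-likelihood test, Benjamini-Hochberg adjusted p = 9.12e-05). Libraries are named by their number, or std for the tagged library of each line, and libraries with the same name deviated together, so differences were also taken within the 3 pairs. All 10 luminal markers were measured, with a summed level of 6551 to 9318 CPM in pBabe-Gα13 and 5646 to 8341 CPM in pBabe-vector. The 8 basal or mesenchymal markers summed to 8.96 to 16.1 CPM in pBabe-Gα13 and 5.20 to 6.85 CPM in pBabe-vector, with KRT5 at 0 in both replicate 2 libraries. In the fit with the pairs as a block 6 of the 8 were called higher, as were 5 of the luminal and 2 of the fibroblast markers, with 0 lower. That fit called 9.32% of all genes higher and 10.4% lower. Only 3 of the basal or mesenchymal markers and 1 of the fibroblast markers reached a mean of 1 CPM. The 6 fibroblast markers summed to 18.01 to 26.4 CPM against 12.8 to 24.2 CPM, and of 6 leukocyte markers 1 was in the table, at 0.206 CPM or less. The part of these cells or markers in the differences below was not tested, and in bulk RNA fewer cells of a type and less RNA per cell cannot be told apart.

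For none of the 10 genes did the difference between the lines pass the test when 3 pBabe-Gα13 libraries were compared with 3 pBabe-vector libraries. The edgeR test called 0 of 10, beside 0.139% of all genes, and 0 of 10 had an unadjusted p under 0.05, beside 8.46% of all genes. DESeq2 and limma-trend also called 0 of 10. DESeq2 called 1.68% of the 16122 genes to which it gave an adjusted p, and limma-trend called 0.0289% of all genes. The range of the 3 libraries overlapped between the lines for every member, while 14.1% of all genes had ranges that did not overlap. The median log2 difference of the members, pBabe-Gα13 minus pBabe-vector, was 0.06, and that of all genes was -0.0013. When the pairs were fitted as a block, 2 of 10 members were called, NQO1 and SQSTM1, both higher in pBabe-Gα13. In that fit 19.7% of all genes were called, 9.32% higher and 10.4% lower, so the share of members called lay at that of the table. Among genes at a mean of at least 1 CPM, which all 10 members reached, 23.3% were called. With the median change of each chromosome also removed, the same 2 members were called, beside 15.3% of the genes tested.

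**Figure D1:**
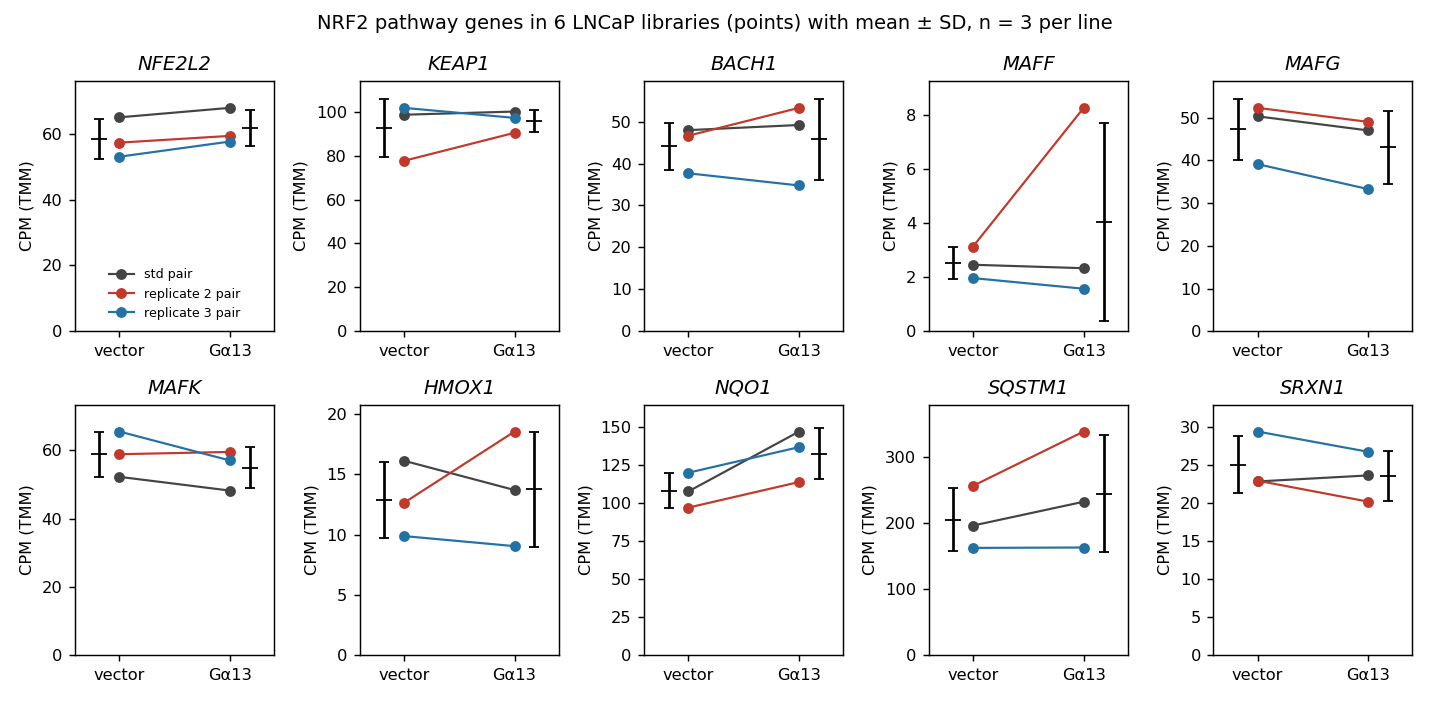
TMM-normalized CPM (linear axis from 0) of the 10 members in each library of pBabe-vector and pBabe-Gα13, with lines joining libraries of the same pair and bars giving the mean and SD (n = 3). The lines' points overlap in every panel, MAFF has 1 high point at 8.26 CPM in pBabe-Gα13 replicate 2, and NQO1 is higher in pBabe-Gα13 within each pair.

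NFE2L2 (chromosome 2, 177218667 to 177392756, minus strand, in the Gencode 44 annotation of GRCh38), which encodes NRF2 itself, was at 68.0, 59.4 and 57.7 CPM in the std, replicate 2 and replicate 3 libraries of pBabe-Gα13. In pBabe-vector the same libraries gave 65.1, 57.4 and 53.1 CPM. The std library was the highest in both lines, and the lines overlapped. The log2 difference was 0.08 (SE 0.11, 95% interval -0.19 to 0.34, edgeR adjusted p = 0.968). Although it was positive in 3 of 3 pairs (0.06, 0.05 and 0.12), the fit with the block did not call it (0.08, interval -0.03 to 0.19, adjusted p = 0.344). The median gene of chromosome 2 was 0.073 higher in pBabe-Gα13 in that fit, and relative to it NFE2L2 stood at 0.003 (adjusted p = 0.988). NFE2L2 was the steadiest member, with 1.28-fold between its highest and lowest library.

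KEAP1 (chromosome 19, 10486125 to 10503558, minus strand), the substrate adaptor that marks NRF2 for degradation, was at 100.1, 90.5 and 97.2 CPM in pBabe-Gα13 and at 98.7, 77.7 and 101.8 CPM in pBabe-vector. Replicate 2 was the lowest library of both lines. The log2 difference was 0.05 (SE 0.12, interval -0.24 to 0.34, edgeR adjusted p = 0.994), and the pairs differed in sign (0.02, 0.22 and -0.07).

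SQSTM1 (chromosome 5, 179806398 to 179838078, plus strand) encodes p62, an autophagy receptor that binds KEAP1 and draws it away from NRF2, and is itself an NRF2 target. It was at 232 CPM in the std library, 339 CPM in replicate 2 and 163 CPM in replicate 3 of pBabe-Gα13. The matching pBabe-vector libraries were at 196, 257 and 162 CPM. In both lines replicate 2 was highest and replicate 3 lowest, and the gap between those cultures exceeded the gap between the lines. Without the block the log2 difference was 0.26 (SE 0.27, interval -0.38 to 0.89, edgeR adjusted p = 0.917, exact two-sided permutation p = 0.60, with 0.10 the smallest that 3 against 3 allows). With the block it was 0.22 (interval 0.10 to 0.34, adjusted p = 0.00871), from differences of 0.24, 0.40 and 0.01 in the std, replicate 2 and replicate 3 pairs. This call rested on the replicate 2 pair, without which the difference was 0.12 (adjusted p = 0.206). SQSTM1 overlaps MGAT4B on the opposite strand, and whether the counting used strand is not stated.

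BACH1 (chromosome 21, 29194071 to 29630751, plus strand), the heme-sensitive repressor, was at 49.2, 53.3 and 34.8 CPM in pBabe-Gα13 and at 48.0, 46.7 and 37.7 CPM in pBabe-vector. Replicate 3 was the lowest library of both lines. The log2 difference was 0.05 (SE 0.18, interval -0.36 to 0.46, edgeR adjusted p = 1), with 0.04, 0.19 and -0.12 in the 3 pairs.

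The small MAFs lack an activation domain of their own and set, by their partner, whether a shared element is driven or silenced. MAFG (chromosome 17, 81918270 to 81927735, minus strand) was at 47.0, 49.0 and 33.3 CPM in pBabe-Gα13 and at 50.3, 52.3 and 39.1 CPM in pBabe-vector. It was the 1 member that was lower in 3 of 3 pairs (-0.10, -0.09 and -0.23), but its log2 difference of -0.13 (SE 0.18) was within the spread of the libraries (edgeR adjusted p = 0.957). The block narrowed the interval to -0.26 to -0.02, with an adjusted p of 0.0912. MAFK (chromosome 7, 1530702 to 1543043, plus strand) was at 48.2, 59.5 and 57.0 CPM against 52.2, 58.9 and 65.5 CPM, a log2 difference of -0.10 (SE 0.12, edgeR adjusted p = 0.947).

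MAFF (chromosome 22, 38200767 to 38216507, plus strand), the small MAF known for its fast induction by stress and growth signals, was the least abundant and most variable member. It was at 2.33, 8.26 and 1.57 CPM in pBabe-Gα13 and at 2.46, 3.13 and 1.96 CPM in pBabe-vector. In counts, pBabe-Gα13 replicate 2 had 281 and the other 5 libraries had 54 to 106. That library alone made the mean of pBabe-Gα13 the higher, 4.05 ± 3.66 against 2.52 ± 0.586 CPM (SD, n = 3), since the std and replicate 3 pairs differed by -0.07 and -0.31. The log2 difference of 0.68 (SE 0.58, interval -0.67 to 2.04, edgeR adjusted p = 0.895) became -0.37 without pBabe-Gα13 replicate 2. With the block it was 0.46 (adjusted p = 0.165). The median gene of chromosome 22 was 0.135 lower on the log2 scale in pBabe-Gα13 in that fit. Relative to it MAFF stood at 0.60 (adjusted p = 0.0985). Leaving out the std pair or the replicate 3 pair from the blocked fit gave called values of 0.77 and 0.75 (adjusted p = 0.00192 and 0.0039), and leaving out the replicate 2 pair gave -0.19.

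HMOX1 (chromosome 22, 35380361 to 35394214, plus strand), heme oxygenase 1, breaks heme down to biliverdin, iron and carbon monoxide and is the best known gene under BACH1. It was at 13.7, 18.6 and 9.04 CPM in pBabe-Gα13 and at 16.1, 12.6 and 9.88 CPM in pBabe-vector. The highest library was replicate 2 in pBabe-Gα13 and std in pBabe-vector, and replicate 3 was lowest in both. The log2 difference was 0.09 (SE 0.28, interval -0.57 to 0.75, edgeR adjusted p = 1), and its sign changed from pair to pair (-0.24, 0.55 and -0.13). With the block the difference was 0.07 (adjusted p = 0.737), and relative to the median of chromosome 22 it was 0.20 (adjusted p = 0.279).

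NQO1 (chromosome 16, 69706996 to 69726668, minus strand), the quinone reductase taken as the standard readout of NRF2 activity, was at 147, 114 and 137 CPM in the std, replicate 2 and replicate 3 libraries of pBabe-Gα13. The pBabe-vector libraries were at 108, 97.2 and 120.2 CPM. Every pBabe-Gα13 library was above its partner, yet pBabe-Gα13 replicate 2 was below pBabe-vector replicate 3, so the lines overlapped. Mean levels were 133 ± 17.0 and 108 ± 11.5 CPM (SD, n = 3), a log2 difference of 0.29 (SE 0.13, interval -0.0089 to 0.60) with an unadjusted p of 0.0555, an edgeR adjusted p of 0.605 and an exact permutation p of 0.20. Within pairs the differences were 0.45, 0.23 and 0.19, and with the block NQO1 rose by 0.29 (interval 0.18 to 0.41, adjusted p = 0.000353). The call held when any 1 pair was left out, with values of 0.21 to 0.35 and an adjusted p of at most 0.00807. It also held after the median change of each chromosome had been subtracted (0.32, adjusted p = 0.000333). No other gene of the table overlaps NQO1 in Gencode 44.

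SRXN1 (chromosome 20, 646615 to 653200, minus strand), sulfiredoxin, which restores over-oxidised peroxiredoxins, was at 23.6, 20.2 and 26.7 CPM in pBabe-Gα13. It was at 22.8, 22.9 and 29.4 CPM in pBabe-vector, with replicate 3 the highest library of both lines. The log2 difference was -0.09 (SE 0.16, interval -0.45 to 0.27, edgeR adjusted p = 0.976). The median gene of chromosome 20 was 0.196 lower on the log2 scale in pBabe-Gα13, and relative to it SRXN1 stood at 0.10 (adjusted p = 0.383).

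**Figure D2:**
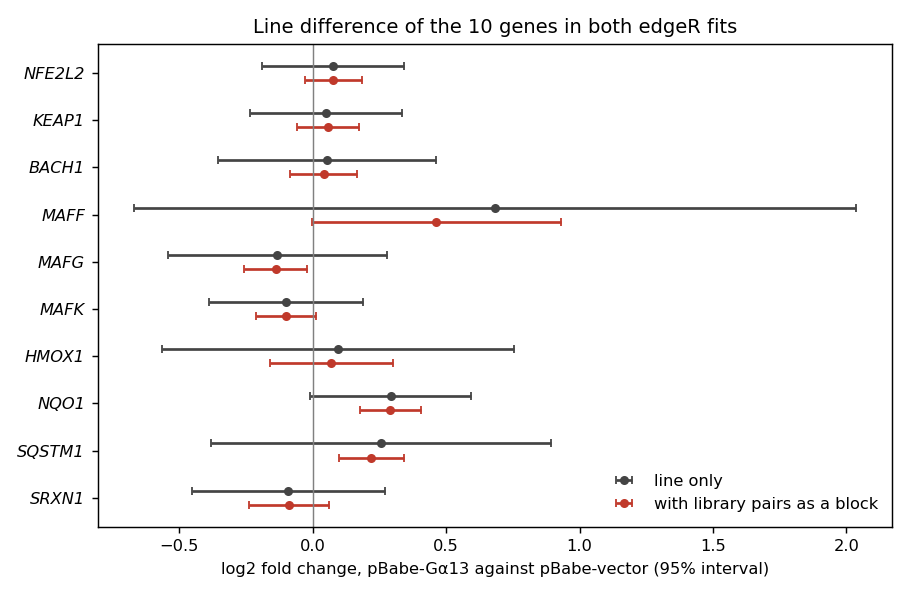
Log2 difference (pBabe-Gα13 minus pBabe-vector) of each member with its 95% interval, in the edgeR fit with the line only (grey) and with the pairs as a block (red). Every interval without the block includes 0, and with it those of NQO1, SQSTM1 and, narrowly, MAFG do not, of which NQO1 and SQSTM1 pass the adjustment.

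All members differed among the library pairs, in a test that includes the std pair. In the blocked edgeR fit 10 of 10 differed among the 3 pairs (adjusted p = 9.89e-10 for SQSTM1 to 0.00543 for KEAP1). This compares with 47.4% of all genes, and with 56.5% of the genes at a mean of at least 1 CPM. SQSTM1, MAFF, HMOX1, MAFG, BACH1 and NFE2L2 were higher in replicate 2 than in replicate 3 of both lines. For SQSTM1 that log2 gap was 1.06 in pBabe-Gα13 and 0.66 in pBabe-vector, for HMOX1 1.03 and 0.35, and for MAFF 2.35 and 0.66. For NFE2L2 it was only 0.04 and 0.11. NQO1 (-0.26 and -0.31), SRXN1 (-0.41 and -0.36) and KEAP1 (-0.10 and -0.39) were lower in replicate 2 than in replicate 3 of both lines. MAFK changed sign between the lines, with 0.06 in pBabe-Gα13 and -0.15 in pBabe-vector. The outputs thus fell on different sides, SQSTM1 and HMOX1 being higher, and NQO1 and SRXN1 lower, in replicate 2 than in replicate 3. What set the cultures of the pairs apart is not given in the sources used here.

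**Figure D3:**
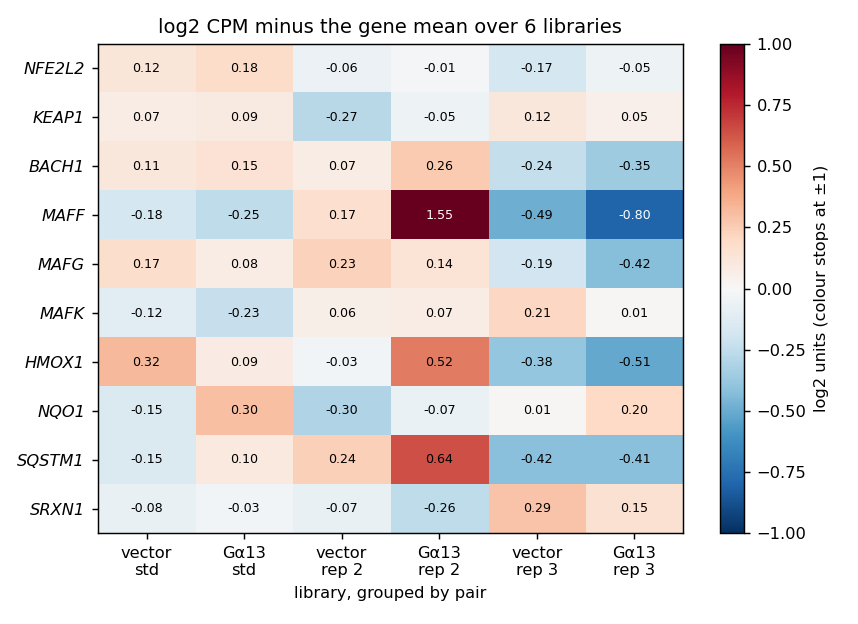
Log2 CPM of each member in the 6 libraries after subtraction of its mean over them (log2 units, colour stopping at 1 either way), with the libraries grouped by pair. SQSTM1, HMOX1 and MAFF are above their mean in replicate 2 and below it in replicate 3 of pBabe-Gα13, while NQO1 and SRXN1 are lowest in replicate 2 of that line.

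Of the members, 3 spanned more than 1 log2 unit over the 6 libraries, MAFF, SQSTM1 and HMOX1, and the genes of the table nearest to each were found by the root mean square difference of centred log2 CPM over the 6 libraries, among 14058 genes. Nearest to MAFF were OBSL1 (0.247), RP11-228B15.4 (0.277), CRYAB (0.283), ADRA2A (0.291) and VEGFA (0.294). VEGFA, an angiogenic factor induced by hypoxia and stress, was at 260.7 CPM in pBabe-Gα13 replicate 2 and at 86.7 to 170.1 CPM in the other libraries. Nearest to HMOX1 were SCARF1 (0.0775), RAD21-AS1 (0.0835) and ATF3 (0.0858), the last a stress-induced transcription factor at 40.8, 49.7 and 27.3 CPM in pBabe-Gα13 and 48.4, 41.1 and 28.0 CPM in pBabe-vector. KRBA2 and EIF4EBP3 followed. Nearest to SQSTM1 were RAB17 (0.0787), CCDC28A, RP11-216F19.1, ARRDC2 and ATAD3C (0.0964).

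A list of 20 immediate early and stress genes was examined beside MAFF. FOS, a subunit of AP-1, was at 5.23 CPM in pBabe-Gα13 replicate 2 and at 0.378 to 1.24 CPM in the other 5. Of the 20, 0 were called without the block, 2 had an unadjusted p under 0.05, and 5 were called with it, all higher in pBabe-Gα13 (JUN, FOS, KLF4, JUND and GADD45A), where 19.7% of all genes and 23.3% of those at a mean of at least 1 CPM were called. KLF4, JUND and GADD45A were named after their values were seen. Without the replicate 2 pair FOS (0.21, adjusted p = 0.836), JUN (0.15, adjusted p = 0.138) and GADD45A lost the call. In the unblocked fit without pBabe-Gα13 replicate 2 the log2 difference was -0.37 for MAFF and -0.05 for SQSTM1. What links the stress genes to the MAFF and SQSTM1 values was not tested.

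Levels of different genes were compared as CPM per kilobase of the canonical transcript, in pBabe-vector. Counts per gene can take reads from all exons, so the order depends on the length used. The union of annotated exons was 7535 bases for SQSTM1, 2971 for NQO1 and 14975 for NFE2L2. Their canonical transcripts were 2840, 2521 and 2446 bases, and an order by exon union is not given here. By canonical length SQSTM1 was the most abundant member at 72.2 ± 16.8 (SD, n = 3). NQO1 at 43.0 ± 4.57 and KEAP1 at 36.2 ± 5.12 followed, and their library ranges overlapped. NFE2L2 (23.9 ± 2.48) and MAFK (17.4 ± 1.97) came next and were separate from their neighbours. SRXN1 (9.92 ± 1.49), MAFG (9.34 ± 1.41), HMOX1 (8.29 ± 2.02) and BACH1 (7.85 ± 0.998) overlapped in turn, and MAFF was lowest at 1.06 ± 0.247. MAFK was thus the leading small MAF transcript. On this scale KEAP1 mRNA was above that of NFE2L2 in all 3 libraries.

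Antioxidant response elements were looked for in the members' promoters, since the members share a regulator and several are its targets. RefSeq windows of GRCh38.p14, from 250 bases before to 50 after the start, were at hand for 8 of 10 members, all but MAFK and HMOX1. The core TGACNNNGC occurred on either strand in 2 of the 8 and in 13.3% of all 35116 promoters. The core TGANTCA, which AP-1 and MAF dimers share, occurred in 1 of 8 and in 7.71% of all. The matches, found in the windows of KEAP1, MAFF and BACH1, are shown with 8 flanking bases, the match in capitals. Sequence farther than 250 bases before the start was not searched. A window without a match therefore does not mean that the gene lacks an element. No match of one core overlapped a match of the other, and a match is a description of the letters only.
KEAP1 (chr19:10502809-10502833, minus strand): ttttattgTGACACGGCgggcgccc
KEAP1 (chr19:10502786-10502810, plus strand): ggtcaccaTGACTAAGCagagccgg
MAFF (chr22:38201864-38201888, minus strand): cccccgtaTGACCCCGCcccctgga
BACH1 (chr21:29298866-29298888, plus strand): ggaaggagTGAGTCAcctgaccg

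None of the other NRF2 targets was called either by the edgeR test of the lines, and with the block they moved in both directions. The list held 55 genes besides the members, of which 53 were in the table and 40 reached a mean of 1 CPM. The edgeR test called 0 of 53, beside 0.139% of all genes. At an unadjusted p under 0.05, 4 were higher and 1 lower, beside 8.46% of all genes in either direction. The list's median log2 difference was -0.02. DESeq2, also without the block, called MGST1 higher (adjusted p = 0.0114) and PTGR1 lower (adjusted p = 0.0374). It called 1.68% of the genes to which it gave an adjusted p. With the block 6 of the 53 were called higher and 11 lower, where 9.32% of all genes were called higher and 10.4% lower. In either direction that fit called 19.7% of all genes, and 23.3% of those at a mean of at least 1 CPM. Of the 17 calls in the list, 10 held when any 1 pair was left out.

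**Figure D4:**
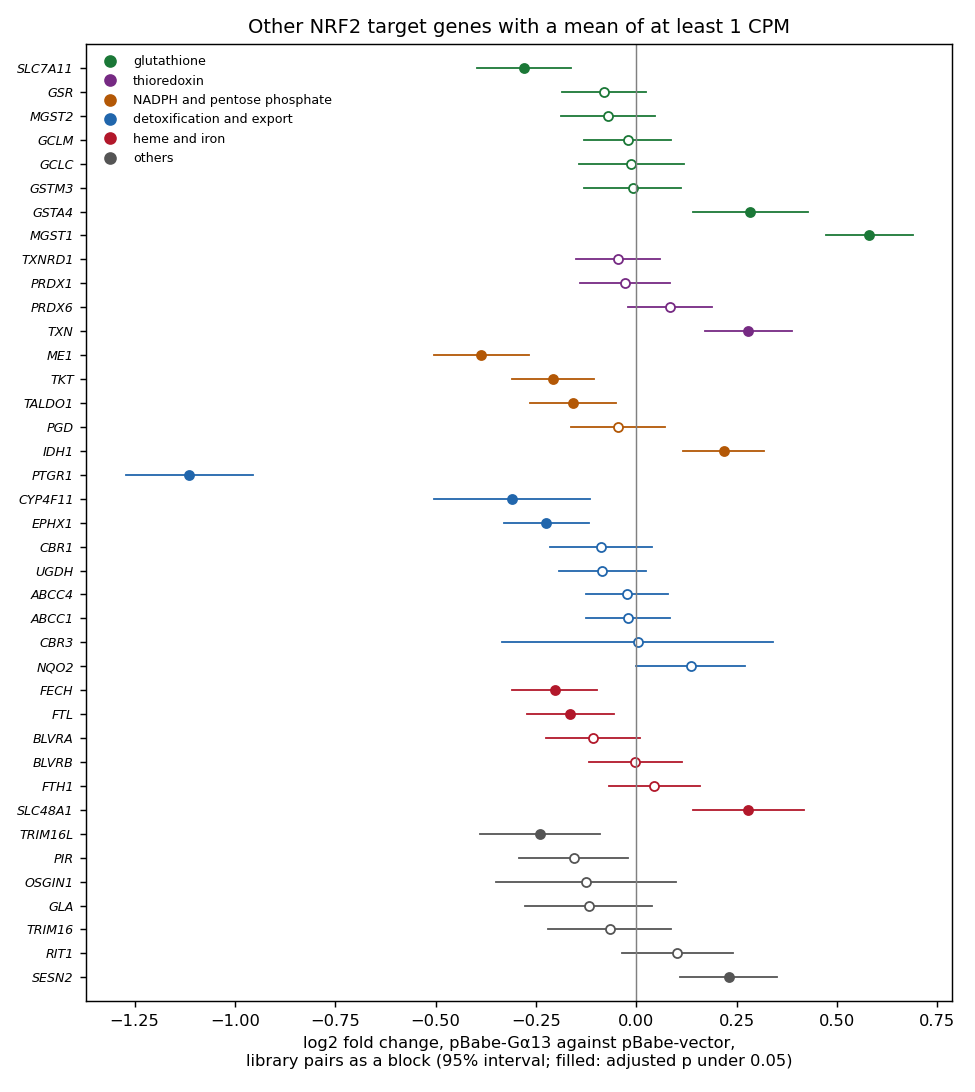
Log2 difference (pBabe-Gα13 minus pBabe-vector) in the blocked fit, with 95% intervals, of the other NRF2 targets at a mean of at least 1 CPM, grouped by role, with filled points for called genes and 1 gene of the list not plotted. Genes of one role lie on both sides of 0, of the genes plotted PTGR1 is lowest at -1.11 and MGST1 highest at 0.58.

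Of the glutathione genes, MGST1, a membrane-bound glutathione transferase, was at 203, 217 and 238 CPM in pBabe-Gα13 and at 127, 152 and 163 CPM in pBabe-vector. Its ranges did not overlap, and with the block it rose by 0.58 (adjusted p = 4.5e-09), or by 0.28 relative to the median gene of chromosome 12 (adjusted p = 0.000443), since that chromosome as a whole was 0.298 higher. GSTA4, a transferase for lipid aldehydes, rose with the block (0.28, adjusted p = 0.00407). The following were picked after their values were seen. SLC7A11, the cystine importer, was lower with the block (-0.28, adjusted p = 0.000702), and GCLC and GCLM, the subunits of the enzyme that limits glutathione synthesis, were not called (-0.01 and -0.02, adjusted p = 0.936 and 0.840).

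Among thioredoxin genes, TXN, thioredoxin itself, was at 159, 141 and 169 CPM in pBabe-Gα13 and at 128, 125 and 134 CPM in pBabe-vector, and rose with the block by 0.28 (adjusted p = 0.000298), or by 0.15 relative to the median of chromosome 9 (adjusted p = 0.0426). TXNRD1, the reductase that recharges it, was not called (-0.05, adjusted p = 0.599), although it was 0.35 below the median of chromosome 12, on which it lies (centred value -0.35, adjusted p = 1.43e-05).

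The genes listed for NADPH supply and the pentose phosphate pathway moved in both directions. With the block 4 of the 6 were called lower and 1 higher, where 10.4% of all genes were called lower and 9.32% higher. Among the 4 were TKT, transketolase (-0.21, adjusted p = 0.00308), and ME1, malic enzyme (-0.39, adjusted p = 1.5e-05). Another was TALDO1, transaldolase, whose call was lost without the replicate 2 or the replicate 3 pair. IDH1 was higher (0.22, adjusted p = 0.00198), or 0.14 relative to the median of chromosome 2 (adjusted p = 0.0346). ME1 was at 108, 121 and 76.3 CPM in pBabe-Gα13 and at 131, 180 and 94.1 CPM in pBabe-vector, lower in each pair, with overlapping ranges. PGD was not called (-0.05, adjusted p = 0.662). IDH1, TALDO1 and PGD were named after their values were seen.

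Of the 16 detoxification and export genes in the table, 3 were called lower with the block and 0 higher. That fit called 10.4% of all genes lower and 9.32% higher. PTGR1, a reductase of prostaglandins and reactive alkenals, had the largest difference among the listed genes at a mean of at least 1 CPM, at 24.8, 21.6 and 35.6 CPM in pBabe-Gα13 and 43.1, 45.8 and 95.8 CPM in pBabe-vector. Its ranges did not overlap, and it fell by 1.11 on the log2 scale with the block (adjusted p = 2.31e-11). EPHX1, epoxide hydrolase, also fell (-0.22, adjusted p = 0.00227), and NQO2, the paralog of NQO1, was not called (0.14, adjusted p = 0.163). The third, CYP4F11, again named after its values were seen (-0.31, adjusted p = 0.0205), lost its call without the std or the replicate 2 pair.

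For heme and iron, none of the calls with the block held through every left-out pair. SLC48A1, a heme transporter, was 0.28 higher (adjusted p = 0.00349) but -0.02 relative to the median of chromosome 12, and lost its call without the replicate 3 pair. FECH, which inserts iron into heme, was lower (-0.20, adjusted p = 0.0051), though not called without the replicate 2 pair. FTL, the ferritin light chain, named after its values were seen, was lower (-0.16, adjusted p = 0.0279), though not called without the replicate 3 pair (-0.09, adjusted p = 0.498). BLVRA, which reduces the biliverdin that HMOX1 makes, was not called (-0.11, adjusted p = 0.210). Of the remaining targets SESN2, also named after its values were seen (0.23, adjusted p = 0.00526) and TRIM16L (-0.24, adjusted p = 0.0193) were called with the block, and each lost its call without 1 pair, replicate 3 for SESN2 and replicate 2 for TRIM16L.

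The regulators around the members were represented by 22 listed genes, 21 of them in the table. The edgeR test called 0, with 1 higher at an unadjusted p under 0.05, and with the block 2 were higher and 2 lower, a share near the 19.7% of all genes. The 4 belong to the listed genes of NRF2 degradation. CAND1, the exchange factor of cullin ligases, rose by 0.26 (adjusted p = 0.000341) and PGAM5, a mitochondrial phosphatase bound by KEAP1, by 0.38 (adjusted p = 5.98e-06). Both lie on chromosome 12, and relative to its median they stood at -0.04 and 0.08 (adjusted p = 0.665 and 0.363). RBX1, the RING subunit of the KEAP1 ligase, fell by 0.26 (adjusted p = 0.000492), but relative to the median of chromosome 22 it stood at -0.13 and was not called (adjusted p = 0.0906). SYVN1, an NRF2 ligase of the endoplasmic reticulum, fell by 0.22 (adjusted p = 0.0032). CUL3 was not called (0.08, adjusted p = 0.284). No relative of NRF2 or coactivator was called, with CREBBP at 0.12 (adjusted p = 0.124), NFE2L3 at -0.12 (adjusted p = 0.310) and RXRA at 0.10 (adjusted p = 0.169). RBX1 and CUL3 were named after their values were seen.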

How the data were processed

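RNA-seq was made from total RNA of 3 pBabe-Gα13 and 3 pBabe-vector LNCaP cultures. Per the Supplementary Methods, the authors checked reads with FastQC (0.11.7 in the submitters' processing notes), aligned them with STAR to Gencode 38 and summarised them with featureCounts. What the authors deposited are read counts per gene symbol (0 fractional values), although the design had allowed for log2 CPM. All 6 columns were used and 0 were left out. The heading of the tagged pBabe-Gα13 library repeats the number 2, so only its line was taken from it and it is called std here.

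After TMM normalization, the quasi-likelihood test of edgeR 4.0.16 in R 4.3.3 was fitted to the 17297 genes without a filter, with the line as the only term, and genes with a Benjamini-Hochberg adjusted p under 0.05 were called. SE is the log2 fold change over the square root of F, and intervals are 95%. CPM are TMM-normalized, and log2 CPM has a prior count of 2. Alternatives were the pair as a block, DESeq2 1.42.0, limma-trend (limma 3.58.1), DESeq2 and upper-quartile size factors, a filter at a mean of 1 CPM, leaving out each library or pair, and subtraction of each chromosome's median. Over 12778 genes, the deviations from the line means correlated between libraries of 1 pair (Pearson r = 0.659 for std, 0.807 for replicate 2 and 0.888 for replicate 3) and at -0.736 to 0.125 between different pairs, so the libraries were taken as paired. Because deviations were centred within each line, positive values within pairs draw those between pairs down. That pairing comes from the data and the shared names. For the std pair the shared name is the tag only, since the tagged headings carry different numbers. Permutation tests were exact and two-sided (SciPy 1.17.1, NumPy 2.4.6, pandas 2.3.3, Python 3.11.15), and figures were drawn with matplotlib 3.10.9. The scripts were tested on simulated counts.

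Members and lists were chosen with earlier results of these data known. Beside the members, GNA13 was named as the check of the labels, and from each list the genes called by the unblocked fit and the 3 of smallest p at a mean of at least 1 CPM, and for each member spanning over 1 log2 unit its 5 nearest genes. Other names were added after their values were seen and are marked so in the text. The fits and counts include 1 target gene whose values are not reported here. Of 152 list entries 143 were in the table. Positions come from Gencode 44 (GRCh38), in which 14386 symbols were found, and overlapping genes cannot be told apart where strand was not used in counting: NFE2L2 overlaps HNRNPA3 and AGPS, BACH1 overlaps GRIK1, LINC00189 and GAPDHP14, MAFF overlaps PLA2G6, MAFG overlaps SIRT7 and MAFK overlaps TMEM184A. The reads carry no molecular identifiers, so the counting floors cover counting error only.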

Additional observations from a re-analysis of the deposited data

How the results depend on the processing

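Of 160 values of single members under 16 alternatives, 134 kept direction and side of the threshold, 11 passed the threshold where the unblocked fit had not, and 15 changed sign. No value could lose a call, since the unblocked fit called 0 members. The number of members called was 0 with DESeq2, limma-trend, DESeq2 and upper-quartile size factors and the filter, 2 with the replicate block and 2 with the replicate block after the chromosome medians had been removed, and 0 to 3 when a library or, in the blocked fit, a pair was left out, the 3 being NQO1, SQSTM1 and MAFF. Other NRF2 targets called were 2 with DESeq2, 17 with the replicate block, 15 with the chromosome medians removed as well, and 0 to 17 with a library or pair left out. Regulators called were 4 with the replicate block, 1 with the chromosome medians removed (SYVN1), and 0 to 4 with a library or pair left out. The members' median stayed within -0.06 to 0.18 when libraries or pairs were left out. SRXN1 changed sign, to 0.10, in the blocked fit with chromosome medians removed. With libraries or pairs left out, log2 differences that changed sign ran from -0.071 to 0.22 for BACH1, -0.19 to 0.33 for HMOX1, -0.063 to 0.13 for KEAP1, -0.37 to 1.07 for MAFF, -0.25 to 0.030 for MAFG, -0.053 to 0.49 for SQSTM1 and -0.19 to 0.039 for SRXN1. The libraries concerned were pBabe-Gα13 replicate 2 (BACH1, HMOX1, MAFF, SQSTM1, SRXN1), pBabe-Gα13 replicate 3 (MAFG), pBabe-vector replicate 2 (KEAP1) and pBabe-vector replicate 3 (BACH1, HMOX1, SRXN1), and the replicate 2 pair in the blocked fit (BACH1, HMOX1, KEAP1, MAFF). The cause was not tested. At this number of libraries the unblocked intervals reach 0.60 for NQO1 and 2.04 for MAFF, and MAFF rests on 54 to 281 counts a library.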

Other observations

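The genes around HMOX1 that make, move or use heme were not called by the edgeR test, with or without the pairs as a block. The list held 9 genes, 8 of them in the table, and the 3 with the smallest p were UROD, an enzyme of heme synthesis (blocked log2 difference -0.09, adjusted p = 0.251), FLVCR1, a heme exporter (0.08, adjusted p = 0.342), and TFRC, the transferrin receptor (-0.20, adjusted p = 0.0622).

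Of 16 partners of SQSTM1 and other autophagy genes, KEAP1 included, 0 were called without the block and 5 with it, and 12 differed among the pairs. The shares of all genes were 19.7% with the block and 47.4% among the pairs, and 23.3% and 56.5% of genes at a mean of at least 1 CPM. ULK1, the kinase that starts autophagy, was at 89.6, 110.8 and 69.3 CPM in pBabe-Gα13 and at 68.1, 73.1 and 51.7 CPM in pBabe-vector. It rose with the block by 0.47 (adjusted p = 2.87e-07), and by 0.18 relative to the median of chromosome 12 (adjusted p = 0.0338). TBK1, which phosphorylates autophagy receptors, lies on the same chromosome and was called (0.20, adjusted p = 0.0109), though not relative to that median (-0.10, adjusted p = 0.217) nor without the replicate 2 or replicate 3 pair. The receptors CALCOCO2 (-0.23, adjusted p = 0.00177) and OPTN (-0.63, adjusted p = 0.0016), the latter named after its values were seen, were lower with the block and kept their calls when any 1 pair was left out. GABARAPL1, also named after its values were seen and also on chromosome 12, was called higher (0.22, adjusted p = 0.013), but relative to that chromosome's median it stood at -0.08 (adjusted p = 0.473), and it lost its call without the std or the replicate 2 pair.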
